A study of Bos taurus with 4 samples.

Results

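Autophagy is the process by which a cell encloses part of its cytoplasm in a double membrane, the autophagosome, and delivers it to the lysosome for digestion. A kinase complex starts the process, a lipid kinase marks the membrane, lipid carriers enlarge it, and a pair of conjugation systems attach small proteins of the ATG8 family to it, to which cargo receptors bind. The lysosome that receives the autophagosome is made acidic by the vacuolar proton pump (V-ATPase), and the early embryo is known to use autophagy after fertilization. The roles given to single genes below are those known from human, mouse and yeast cells.

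The genes described here were chosen by their symbol in the annotation of the array: the ATG genes, the ULK kinases, the MAP1LC3 and GABARAP families, WIPI1 and WIPI2, the ATP6V0 and ATP6V1 subunits of the V-ATPase, LAMP1, LAMP2 and 11 further genes of the pathway. There were 63 such genes on 104 probes, of 15229 genes with a symbol on 21790 probes. Each gene was represented by 1 probe, the one with the brightest raw signal. A reading is 1 probe in 1 dye channel of 1 array, and a probe was tested when at least 4 of its 8 readings were above the 95th percentile of 153 negative control spots. Of the 63 genes, 57 were tested, among 11831 tested genes in all.

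Pools of bovine expanded blastocysts that had been frozen slowly as morulae were compared with pools of unfrozen control blastocysts on 4 arrays of 2 channels, each array holding 1 slow-frozen and 1 control pool. According to the labels, slow-frozen morulae were taken on day 6 of culture. They were held in 1.5 M glycerol, seeded with ice at -7 °C, cooled at 0.5 °C per min to -35 °C, plunged into liquid nitrogen, and cultured again after warming. Control morulae stayed in culture without glycerol or freezing. All embryos in both groups came from in vitro maturation and fertilization, and were labelled as beef breed, collected on day 7 after fertilization and pooled at 7 per pool. The study's methods place both the morula and the blastocyst stage on later days, and give a range of embryos per pool with 7 as its upper end. The files do not settle which holds. Slow-frozen RNA carried Cy5 on arrays 1 and 2 and Cy3 on arrays 3 and 4. A label field for cryopreservation reads yes for the control pools too, and the groups were taken from the treatment field. Each pool mixes embryos, holds trophectoderm, inner cell mass and hypoblast together, and holds only embryos that reached the expanded blastocyst, so that fewer cells of a type and less RNA per cell cannot be told apart in these ratios.

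Of the 9 trophectoderm markers on the array, 9 were above background on all 4 arrays in both groups, and CDX2, GATA3 and KRT8 were among them. Of 14 markers of cumulus and granulosa cells, which surround the oocyte, AMH, AMHR2 and FOXL2 were below background in all 8 readings. COL1A2, STAR, CYP19A1 and PTX3 were above background in all 8, so signal for this list was present in both groups. Of the 10 tested, 0 had an unadjusted p under 0.05. Intensities of the 14 markers were summed, so that bright probes such as that of COL1A2 weigh most. The log2 of the sum lay between 12.26 and 12.72 in slow-frozen pools and between 12.47 and 12.65 in control pools. Between 24638 and 31529 probes per channel were above background. Across the 30473 tested probes the slow-frozen over control ratios of different arrays correlated between -0.278 and 0.0376, and across the 57 autophagy and lysosome genes between -0.272 and 0.103. These correlations are across genes, which are not independent replicates, and they show that the pairs of pools shared little of their deviation from 0. The spread of the ratios between arrays had a median SD of 0.40 on the log2 scale over the 57 genes, against 0.34 over all tested genes.

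None of the 57 genes differed between slow-frozen and control blastocysts at an adjusted p under 0.05 in limma, each having an adjusted p of 0.9999, and 0% of all tested genes did (0 of 11831). At an unadjusted p under 0.05, 0 of the 57 genes were higher in slow-frozen blastocysts, against 0.904% of all tested genes, and 1 was lower, ULK2, against 1.01%. The fitted log2 ratio of slow-frozen over control was above 0 for 29 genes, or 50.9%, and below 0 for 28, against 49% above 0 among all tested genes. It lay between -0.43 and 0.35 for the 57 genes. Its median over the 57 genes was 0.00, the same as the median over all tested genes when both are rounded to 2 decimals. For 40 of the 57 genes the ratio lay within 0.2 of 0. The median size of the ratio, taken without its sign, was 0.14 over the 57 genes and 0.10 over all tested genes. When each array was centred on its median instead of normalised by loess, the median of all tested genes moved to -0.13 and that of the 57 genes to -0.21, with 10 ratios above 0 and 47 below. Because the fit holds a dye term, the p-values measure the spread among these 4 pairs of pools only within each dye orientation. They leave out the difference between the dye orientations, and the variance behind them was moderated across genes. An exact sign-flip permutation test over 4 arrays could not have reached 0.05.

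The intervals set a limit on how large a difference these arrays leave room for, but they leave out the difference between dye orientations. GABARAP, for example, had an interval of -0.08 to 0.67. Its mean ratio was -0.34 within arrays 1 and 2 and 0.93 within arrays 3 and 4. For such genes the intervals understate the spread over all 4 arrays. The 95% confidence interval lay within 1.5-fold in either direction for 28 of the 57 genes, against 66.7% of all tested genes, and within 2-fold for 57 of 57, against 96.9%. Of the 57 genes 0 had a fitted ratio over 1.5-fold, against 0.524% of all tested genes. For 5 of the 57 genes the mean ratio over the arrays was larger than its SD, a share of all tested genes of 8.16%. The levels of the slow-frozen and control pools overlapped for 57 of 57 genes, whereas 0.795% of all tested genes had levels that did not overlap.

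The sign of the ratio was the same on all 4 arrays for 7 of the 57 genes, or 12.3%, against 7.54% of all tested genes. Ratios above 0 on all 4 arrays were found for 2 of the 57 genes, ATG2B and ATP6V0E2, against 3.52% of all tested genes. That of ATP6V0E2 was only 0.0014 on array 4, and its dim signal was above background in 7 of 8 readings. Ratios below 0 on all 4 were found for 5 genes, ULK2, PIK3C3, ATG4B, OPTN and ATP6V1A, against 4.01%. The number of arrays with a ratio above 0 was 3 for 14 genes, 1 for 16 genes and 2 for 20 genes.

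**Figure D1:**
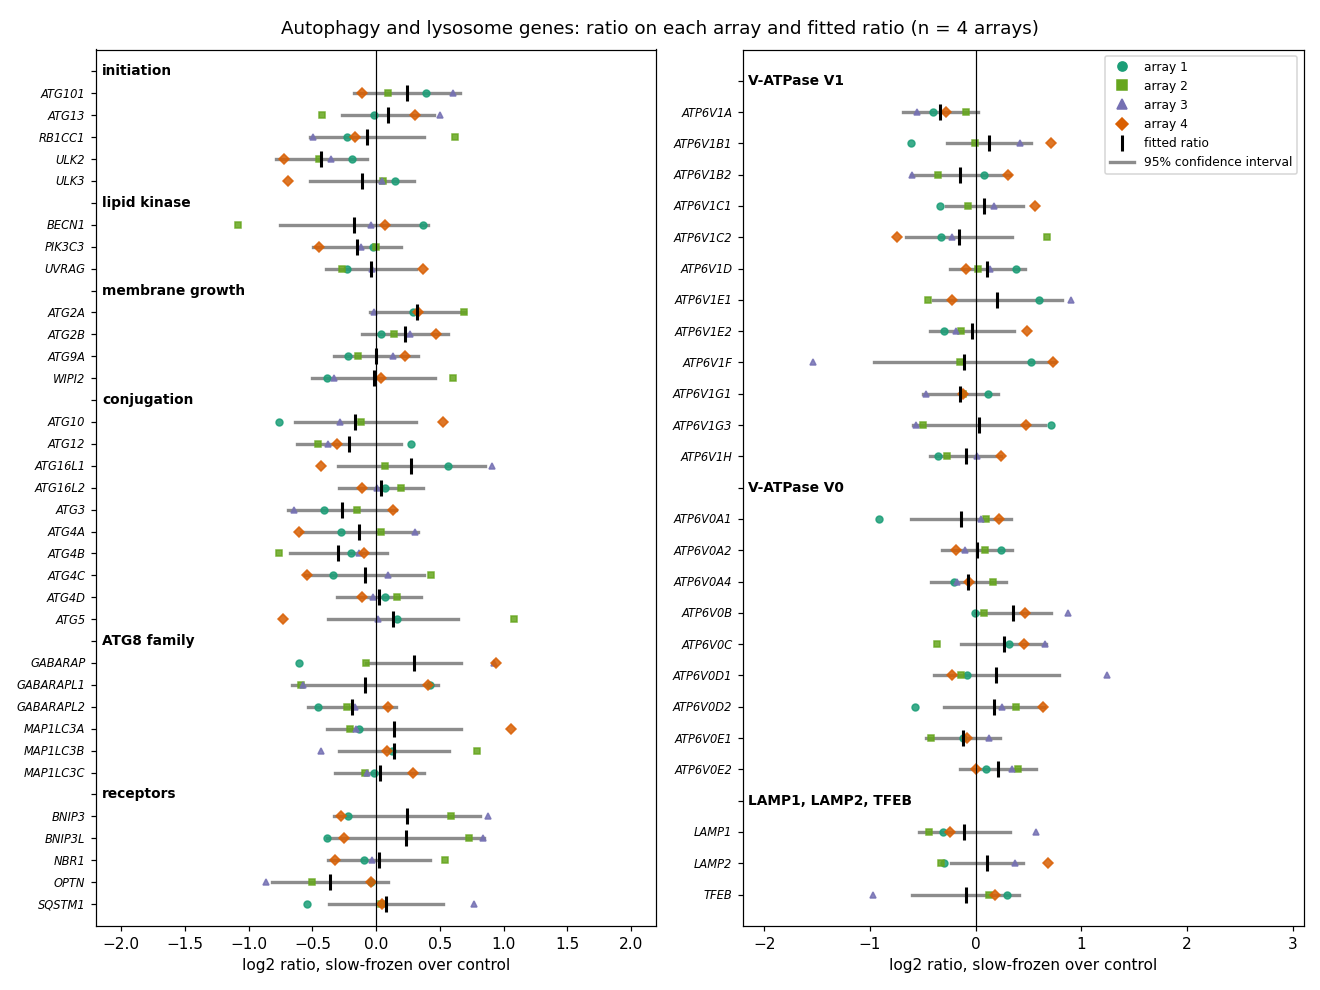
Log2 ratio of slow-frozen over control (x axis) for the 57 tested autophagy and lysosome genes, grouped by role: the 4 arrays as coloured symbols, the fitted ratio as a black tick and its 95% confidence interval as a grey bar. The interval of ULK2 lies below 0, those of the other 56 genes cross 0, and the points of most genes fall on both sides of 0.

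The initiation complex holds the kinases ULK1 and ULK2, which start autophagosome formation, the adaptors ATG13 and ATG101, and the scaffold RB1CC1. ULK2 had log2 levels of 9.27, 8.90, 9.45 and 8.64 in the slow-frozen pools of arrays 1 to 4, against 9.46, 9.34, 9.81 and 9.37 in the control pools of the same arrays. On each array the slow-frozen pool was the dimmer of the pair, although its level on array 3 was above some control levels, so the groups overlap. The ratios were -0.19, -0.45, -0.35 and -0.73, and the fitted ratio was -0.43 ± 0.15 (SE, n = 4 arrays, 95% interval -0.79 to -0.07), a fold of 0.743. ULK2 stayed below 0 when any 1 array was left out, between -0.52 and -0.34. It passed an unadjusted p under 0.05 without array 3 but not without array 1, 2 or 4, nor without the pairing of pools by array, with the mean of its probes, or with trended and robust moderation of the variance. A second probe of ULK2, above background in 8 of 8 readings, had a fitted ratio of 0.00 ± 0.14, with array ratios of 0.08, 0.03, -0.16 and 0.05. The ratio seen with the brightest probe was thus not seen with the second one. A further probe, above background in 3 of 8 readings and not tested, had array ratios of -0.44, -0.41, -0.08 and -0.83.

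Among the other initiation genes, the ratios were 0.24 ± 0.17 for ATG101, 0.09 ± 0.15 for ATG13, -0.07 ± 0.19 for RB1CC1 and -0.11 ± 0.17 for ULK3, a related kinase (SE, n = 4 arrays each). ULK1 had 0 of 8 readings above background and was not tested. The ratio of ULK3 came from 1 array: it was -0.69 on array 4 and between 0.04 and 0.15 on the others.

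The lipid kinase complex is built around PIK3C3, the catalytic subunit that makes phosphatidylinositol 3-phosphate, with BECN1 as its regulatory subunit and UVRAG as a partner. All 3 tested genes of the group had fitted ratios below 0, and 2 of 3 did so without array 2 or without array 3. PIK3C3 had log2 levels of 10.94, 10.70, 10.79 and 10.66 in slow-frozen pools and 10.96, 10.70, 10.91 and 11.11 in control pools. The members of a pair were nearly equal on arrays 1 and 2, and the fitted ratio was -0.15 ± 0.14 (SE, n = 4 arrays, 95% interval -0.49 to 0.20). BECN1 had a ratio of -0.17 ± 0.24, which rested on array 2, where it was -1.08, against 0.36, -0.04 and 0.07 on arrays 1, 3 and 4. Without array 2 the ratio of BECN1 was 0.19, in a fit that gives array 1 the weight of arrays 3 and 4 together. UVRAG had a ratio of -0.04 ± 0.15, and AMBRA1, which binds BECN1, had 0 of 8 readings above background.

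Growth of the membrane depends on ATG2A and ATG2B, which carry lipids to it, on ATG9A, a lipid scramblase, and on the WIPI proteins, which bind the lipid that PIK3C3 makes. ATG2A had log2 levels of 11.68, 11.25, 11.74 and 12.15 in slow-frozen pools, against 11.39, 10.56, 11.75 and 11.82 in control pools. The slow-frozen pool was the brighter of the pair on arrays 1, 2 and 4 and nearly equal on array 3, and the groups overlap. The fitted ratio was 0.32 ± 0.15 (SE, n = 4 arrays, 95% interval -0.05 to 0.69). ATG2B gave 0.23 ± 0.14 with the brightest probe and -0.42 ± 0.17 with a second probe that was above background in all 8 readings, so that the sign of its ratio depended on the probe. The second probe was below 0 on all 4 arrays, at -0.92, -0.30, -0.09 and -0.37, while the brightest was above 0 on all 4, at 0.04, 0.14, 0.26 and 0.47. ATG9A and WIPI2 had ratios of 0.00 ± 0.14 and -0.02 ± 0.20. ATG9B was above background in 0 of 8 readings, and WIPI1 in 0 of 4 readings of slow-frozen pools and 1 of 4 of control pools, too few for a ratio.

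The conjugation genes include ATG7, the activating enzyme of both systems, the transfer enzymes ATG3 and ATG10, the ATG12, ATG5 and ATG16L1 proteins that form the complex at the membrane, and the ATG4 proteases that trim ATG8 proteins. Of the 10 tested, 4 had ratios above 0 and 6 below, and their median was -0.11. The median was 0.02 without array 1, with 5 of 10 above 0, and 0.06 without array 4, with 6 of 10 above 0, and 2 of 10 were above 0 with median centring. The smallest p in the group was that of ATG4B, the protease with the broadest action on ATG8 proteins. ATG4B had log2 levels of 7.39, 6.98, 7.25 and 7.01 in slow-frozen pools, against 7.59, 7.74, 7.38 and 7.11 in control pools. Its signal was close to background: 1 of 4 slow-frozen readings exceeded the limit, against 4 of 4 for the control, and 1 group thus carried most of the readings that let it be tested. The ratio was below 0 on all 4 arrays, at -0.19, -0.76, -0.13 and -0.10, with a fitted value of -0.30 ± 0.16 (SE, n = 4 arrays, 95% interval -0.67 to 0.08).

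The remaining conjugation genes had ratios that changed sign between arrays. ATG3 had -0.27 ± 0.18 and ATG12 had -0.22 ± 0.17, each below 0 on 3 of 4 arrays (SE, n = 4 arrays each). ATG16L1 had 0.28 ± 0.24, with 0.91 on array 3 and -0.44 on array 4, and its other tested probes had -0.02 and -0.03. ATG5 ranged most widely, from -0.73 on array 4 to 1.08 on array 2, and had a fitted ratio of 0.13 ± 0.21. ATG10 had -0.16, and a further probe of it 0.10. ATG4A and ATG4C had -0.13 and -0.09, and ATG4D and ATG16L2 had 0.02 and 0.04. ATG7 exceeded background in 1 of 4 readings of slow-frozen pools and 1 of 4 of control pools and was not tested.

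The ATG8 family are the small ubiquitin-like proteins that are coupled to lipid on the growing membrane, and 6 of 6 genes were tested. Of these, 4 had fitted ratios above 0 and 2 below (1 and 5 with median centring), and on array 4 all 6 ratios were above 0, whereas 1 of 6 was above 0 on array 2 and 1 of 6 on array 3. Without array 4, 2 of 6 fitted ratios were above 0 and the family median was -0.11, while without array 3 they were 5 of 6 and 0.22. GABARAP had log2 levels of 12.33, 12.17, 13.45 and 13.26 in slow-frozen pools, against 12.94, 12.25, 12.53 and 12.31 in control pools. Its slow-frozen pools were high on arrays 3 and 4, where they carried Cy3, and at or below their controls on arrays 1 and 2, where they carried Cy5. The array ratios were -0.61, -0.08, 0.93 and 0.94, and the fitted ratio was 0.29 ± 0.15 (SE, n = 4 arrays, 95% interval -0.08 to 0.67). Within arrays 1 and 2 the mean ratio was -0.34, and within arrays 3 and 4 it was 0.93. The dye term of the fit, the mean Cy5 over Cy3 ratio, was -0.64 for GABARAP, with an adjusted p of 0.923 in limma.

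MAP1LC3A and MAP1LC3B encode forms of LC3, the protein most used to mark autophagosomes. MAP1LC3A had log2 levels of 11.27, 11.48, 11.21 and 12.62 in slow-frozen pools, against 11.41, 11.68, 11.37 and 11.56 in control pools. The slow-frozen pool of array 4 stood above the other 7 pools, and the slow-frozen pools of arrays 1 to 3 were each a little dimmer than their controls. The fitted ratio of MAP1LC3A was 0.14 ± 0.22, and without array 4 it was -0.17. Its second probe had -0.08 ± 0.15. MAP1LC3B had log2 levels of 12.29, 12.03, 11.60 and 12.05 in slow-frozen pools, against 12.16, 11.23, 12.04 and 11.97 in control pools. It was brighter in the slow-frozen pool on arrays 1, 2 and 4 and dimmer on array 3, with a fitted ratio of 0.14 ± 0.18 and -0.17 ± 0.17 for its second probe. MAP1LC3C, a further form of LC3, had log2 levels of 7.47, 7.00, 7.63 and 7.66 in slow-frozen pools, against 7.48, 7.09, 7.70 and 7.37 in control pools. This signal was above background in 3 of 4 readings of each group, and the fitted ratio was 0.03 ± 0.15.

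GABARAPL1 and GABARAPL2, which act with GABARAP in late autophagosome formation, had ratios below 0. GABARAPL1 had log2 levels of 9.78, 8.79, 9.33 and 10.46 in slow-frozen pools, against 9.36, 9.37, 9.91 and 10.06 in control pools. The pairs split evenly, with slow-frozen brighter on arrays 1 and 4 and dimmer on arrays 2 and 3, and the fitted ratio was -0.08 ± 0.24. GABARAPL2 had log2 levels of 13.13, 13.12, 13.27 and 13.34 in slow-frozen pools, against 13.59, 13.35, 13.44 and 13.25 in control pools. Slow-frozen pools were dimmer on arrays 1 to 3 and brighter on array 4, with a fitted ratio of -0.19 ± 0.14 (SE, n = 4 arrays, 95% interval -0.54 to 0.16).

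**Figure D2:**
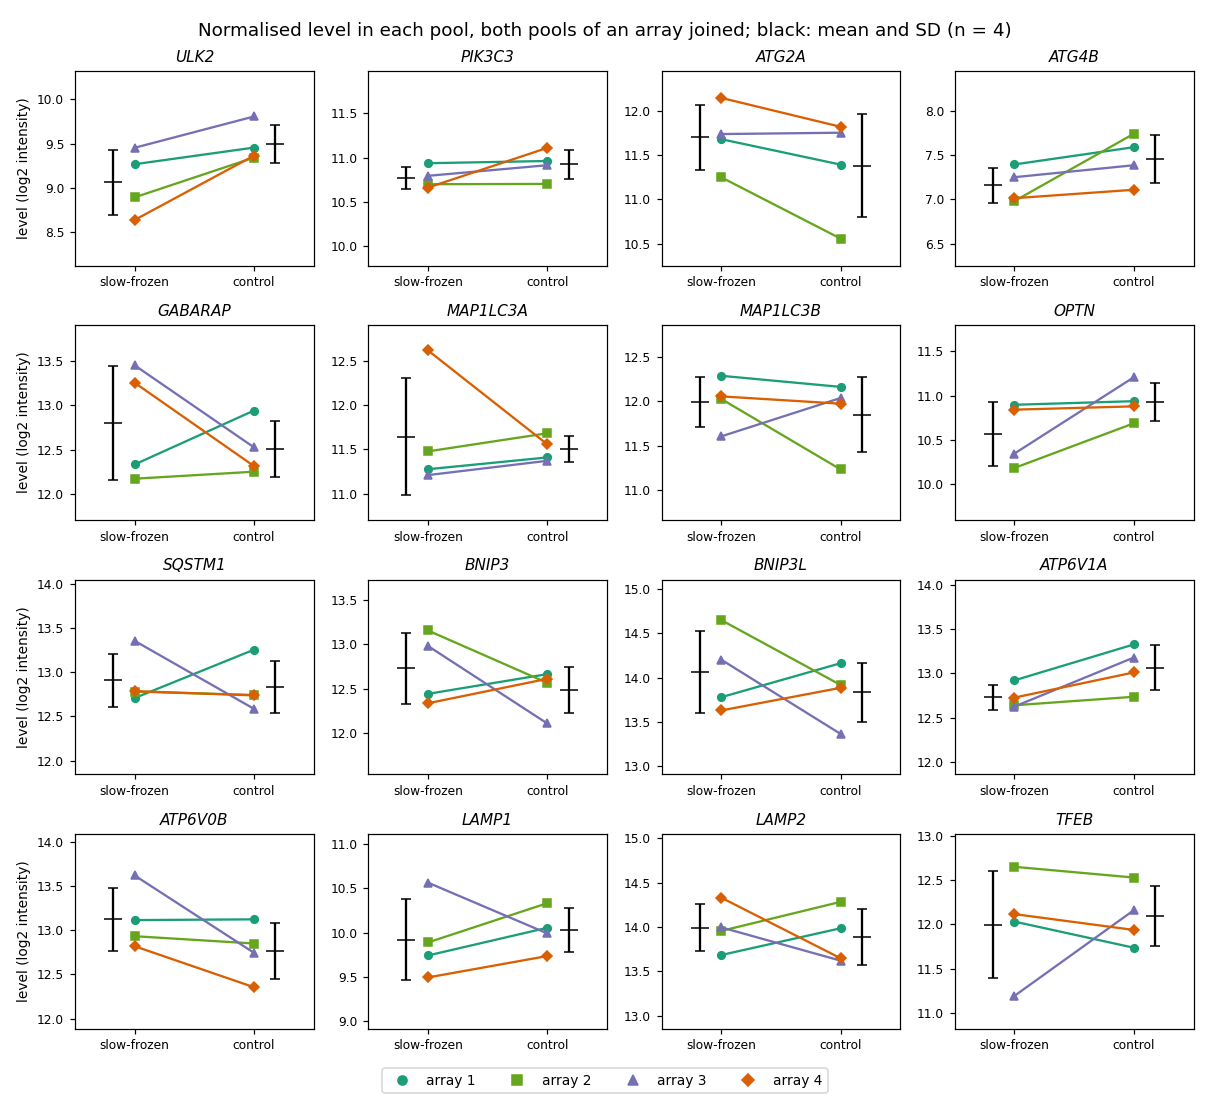
Normalised log2 intensity (y axis, each panel spanning the same range) of 16 genes in the slow-frozen and control pools, with the pools of an array joined by a line and the mean and SD of each group (n = 4 pools) in black. Lines of ULK2, ATG4B, OPTN and ATP6V1A all run upwards to the control pool, while those of GABARAP, BNIP3, BNIP3L and LAMP2 cross.

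Cargo receptors hold the material to be digested and bind ATG8 proteins. SQSTM1, NBR1 and OPTN recognise ubiquitin-tagged cargo, and BNIP3 and BNIP3L sit on mitochondria and mark them for autophagy. Of these 5 genes, 4 had fitted ratios above 0 (1 with median centring), and none had an unadjusted p under 0.05. The count rested on single arrays: without array 3, 0 of 5 were above 0, and without array 2, 1 of 5 was. SQSTM1 had log2 levels of 12.71, 12.78, 13.35 and 12.79 in slow-frozen pools, against 13.25, 12.74, 12.59 and 12.74 in control pools. Its ratio was -0.55 on array 1, 0.77 on array 3 and near 0 on arrays 2 and 4, and the fitted ratio was 0.08 ± 0.19. OPTN had log2 levels of 10.90, 10.18, 10.35 and 10.84 in slow-frozen pools, against 10.94, 10.69, 11.21 and 10.88 in control pools. The pairs of arrays 1 and 4 were nearly equal and those of arrays 2 and 3 were not, at -0.50 and -0.86, with a fitted ratio of -0.36 ± 0.19 (SE, n = 4 arrays, 95% interval -0.81 to 0.09). NBR1 had a ratio of 0.02 ± 0.17 with 3 of 4 slow-frozen and 2 of 4 control readings above background.

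The mitochondrial receptors had the same sign as each other on each array. BNIP3 had log2 levels of 12.44, 13.16, 12.98 and 12.33 in slow-frozen pools, against 12.66, 12.56, 12.11 and 12.61 in control pools. BNIP3L had log2 levels of 13.78, 14.65, 14.20 and 13.63 in slow-frozen pools, against 14.16, 13.92, 13.37 and 13.89 in control pools. For both genes the slow-frozen pool was the brighter on arrays 2 and 3 and the dimmer on arrays 1 and 4, in both dye orientations. The ratios were -0.22, 0.59, 0.88 and -0.28 for BNIP3 and -0.38, 0.73, 0.84 and -0.26 for BNIP3L, and the fitted ratios were 0.24 ± 0.24 and 0.23 ± 0.26 (SE, n = 4 arrays each, 95% intervals -0.33 to 0.81 and -0.38 to 0.85). A second probe of BNIP3L had a fitted ratio of -0.10 ± 0.18, with array ratios of -0.06, 0.22, 0.14 and -0.70, the same order of signs. The order of signs seen in BNIP3 and BNIP3L was shared by ATG4A and ATG4C, 4 of 57 genes, and by 10.3% of all tested genes.

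The medians of markers for the inner cells of the blastocyst took the same order of signs, although not each marker did. The median ratio of the 4 tested hypoblast markers, of 5 on the array, was -1.09, 1.34, 0.25 and -0.66 on arrays 1 to 4, and that of the 5 tested inner cell mass markers, of 6 on the array, was -0.12, 0.80, 0.21 and -0.13. The order was that of 2 of the 5 inner cell mass markers, NANOG and SOX2, of 2 of the 4 hypoblast markers, HNF4A and PDGFRA, and of 0 of the 9 trophectoderm markers. NANOG, a factor of the inner cell mass, had ratios of -2.18, 3.24, 2.59 and -0.39, and HNF4A, a hypoblast factor, had -2.74, 1.68, 2.26 and -1.13. In contrast, GATA4, another hypoblast factor, had -0.67, -0.58, -0.29 and 0.86, and LIN28B, listed with the inner cell mass, was above 0 on all 4 arrays, at 0.54, 0.47, 0.12 and 1.38. Intensities were also summed over each list and put on the log2 scale. For the hypoblast markers the sum lay between 14.92 and 16.12 in slow-frozen pools and between 15.06 and 16.19 in control pools. FN1 was the brightest of them, at 14.60 to 15.86 in slow-frozen pools, so this sum says little about HNF4A or PDGFRA. For the inner cell mass markers the sum lay between 14.01 and 14.15 in slow-frozen pools and between 12.87 and 14.24 in control pools. Of both lists, 0 markers were below background in every reading. The 9 trophectoderm markers had medians of 0.54, 0.18, 0.27 and -0.32. Fitted ratios were above 0 for 4 of 5 inner cell mass, 2 of 4 hypoblast and 7 of 9 trophectoderm markers, with medians of 0.38, -0.05 and 0.17. At an unadjusted p under 0.05 in limma, LIN28B was higher, against 0.904% of all tested genes, and no other marker of these lists passed. The part of cell composition in the ratios of BNIP3 and BNIP3L was not tested.

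**Figure D3:**
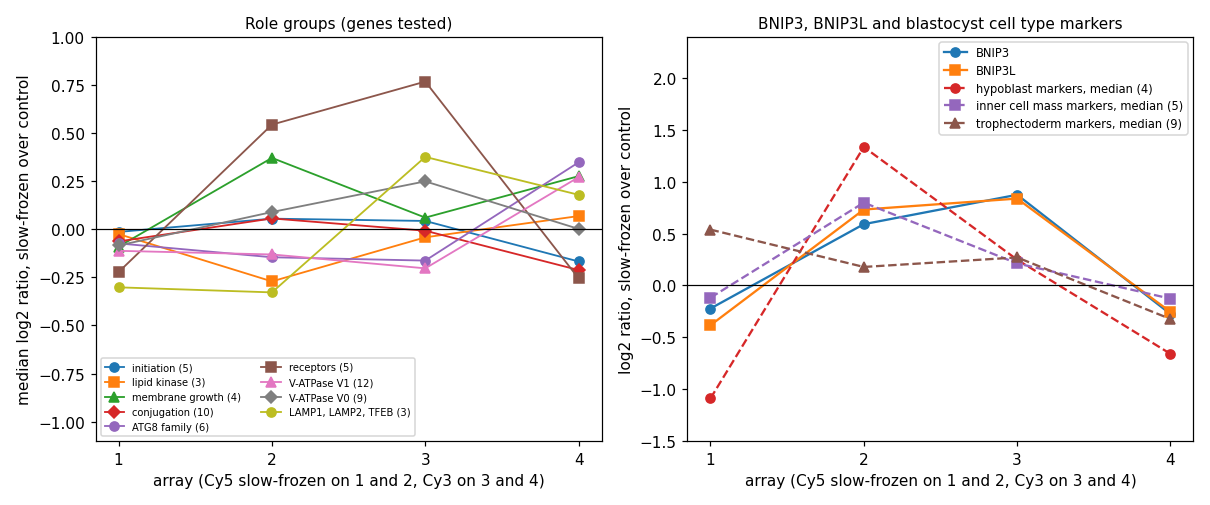
Median log2 ratio of slow-frozen over control (y axis) on each array (x axis) for the 9 role groups (left), and the ratios of BNIP3 and BNIP3L beside the medians of blastocyst cell type markers (right); lines only join the points of 1 group. The receptors range from -0.26 to 0.77 across arrays, the widest range of the role groups, and BNIP3, BNIP3L, the hypoblast and the inner cell mass markers are above 0 on arrays 2 and 3 and below 0 on arrays 1 and 4.

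The V-ATPase has a cytosolic part, V1, which splits ATP, and a membrane part, V0, through which protons pass into the lysosome. Together its 21 tested genes had 11 ratios above 0 and 10 below, with a median of 0.01. In V1, 5 of 12 tested genes were above 0 and the median was -0.07 (1 of 12 and -0.28 with median centring). In V0, 6 of 9 were above 0 and the median was 0.17 (2 of 9 and -0.11 with median centring). Without array 3 the V1 genes had 7 of 12 above 0 and a median of 0.07, and the V0 genes 4 of 9 and -0.01. Without array 4 the V1 count was 3 of 12 and its median -0.18, and without array 2 the V0 median was 0.05. The difference between V1 and V0 was not tested.

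ATP6V1A, the catalytic subunit of V1, had log2 levels of 12.92, 12.64, 12.62 and 12.73 in slow-frozen pools, against 13.33, 12.73, 13.18 and 13.01 in control pools. The slow-frozen pool was the dimmer of every pair, and the slow-frozen pool of array 1 was above the control pool of array 2, so the groups overlap. The fitted ratio was -0.33 ± 0.15 (SE, n = 4 arrays, 95% interval -0.69 to 0.02). Other probes of ATP6V1A, each above background in all 8 readings, had 0.23 ± 0.16 and -0.09 ± 0.20, so the probes differed in sign. ATP6V1F, a rotor subunit of V1, had the widest spread of the 57 genes, with ratios of 0.53, -0.15, -1.54 and 0.73 and a fitted ratio of -0.11 ± 0.36. The other V1 genes tested had fitted ratios between -0.16 and 0.21. ATP6V1G2, known mainly from neurons, exceeded background in 1 of 4 readings of slow-frozen pools and 2 of 4 of control pools and was not tested.

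ATP6V0B, a subunit of the ring in the membrane that carries protons, had log2 levels of 13.11, 12.93, 13.62 and 12.82 in slow-frozen pools, against 13.12, 12.85, 12.74 and 12.36 in control pools. The pairs of arrays 1 and 2, with slow-frozen RNA in Cy5, were nearly equal, and in those of arrays 3 and 4 the slow-frozen pool was brighter, by 0.87 and 0.46. The fitted ratio was 0.35 ± 0.15 (SE, n = 4 arrays, 95% interval -0.00 to 0.71), and the mean ratio was 0.04 within arrays 1 and 2 and 0.67 within arrays 3 and 4. ATP6V0C, another ring subunit, had 0.26 ± 0.17 and 0.24 ± 0.16 on its probes. ATP6V0D1, a stalk subunit, had 0.20 ± 0.25, with 1.24 on array 3 and between -0.23 and -0.08 on the others. ATP6V0A4, an isoform of the subunit that forms the proton path together with the ring, had -0.07 ± 0.15 with the brightest probe, while its second probe had ratios of 0.86, 0.83, 0.47 and -0.07 and a fitted ratio of 0.52 ± 0.16 (SE, n = 4 arrays). The other V0 genes had fitted ratios between -0.14 and 0.21.

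LAMP1 and LAMP2 are the main glycoproteins of the lysosomal membrane, and TFEB is the transcription factor that drives many genes of the lysosome and of autophagy. LAMP1 had log2 levels of 9.74, 9.89, 10.56 and 9.49 in slow-frozen pools, against 10.06, 10.33, 9.99 and 9.74 in control pools, and LAMP2 had 13.68, 13.96, 13.997 and 14.33 in slow-frozen pools, against 13.99, 14.28, 13.62 and 13.65 in control pools. LAMP1 was dimmer in the slow-frozen pool on arrays 1, 2 and 4, and LAMP2 was dimmer on arrays 1 and 2 and brighter on arrays 3 and 4, following the dyes. Fitted ratios were -0.11 ± 0.18 for LAMP1 and 0.11 ± 0.14 for LAMP2, whose dye term was -0.42 (adjusted p = 0.923 in limma). TFEB had log2 levels of 12.03, 12.65, 11.19 and 12.11 in slow-frozen pools, against 11.74, 12.53, 12.16 and 11.94 in control pools. Its slow-frozen pool was the brighter on arrays 1, 2 and 4 and the dimmer on array 3, where the ratio was -0.97, and the fitted ratio was -0.09 ± 0.21.

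Ratios that turned with the dyes were found in 9 of the 57 genes. In 7 of them, ATG13, ATG9A, ATP6V1B1, ATP6V1C1, ATP6V1H, GABARAP and LAMP2, the ratio was below 0 on arrays 1 and 2 and above 0 on arrays 3 and 4, against 8.71% of all tested genes. In ATG4D and ATP6V0A2 the signs were the other way round, against 6.58% of all tested genes. No gene of the 57 had a dye term at an adjusted p under 0.05 in limma, and 0% of all tested genes did. At an unadjusted p under 0.05 there were 3, GABARAP, LAMP2 and ATP6V1B1, against 5.05% of all tested genes.

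A second or further tested probe was present for 22 of the 57 genes. Of these 33 further probes, 17 had the sign of the brightest probe and 16 the opposite sign, and 13 genes had at least 1 probe of opposite sign. The median difference between a further probe and the brightest probe of its gene was 0.14, and 7 of the 33 differed by over 0.3. Besides the genes whose probes are given above, ATP6V0A2, ATP6V0E1, ATP6V1B1 and ATP6V1H had further probes of opposite sign, with ratios of -0.06 for ATP6V0A2, 0.03 and 0.17 for ATP6V0E1, -0.00 and -0.15 for ATP6V1B1 and 0.04 for ATP6V1H. Of the 33, those of ATG2B and ATP6V0A4 had an unadjusted p under 0.05, in both cases with a sign opposite to that of the brightest probe. Whether such probes lie on different transcripts is not given in the sources used here.

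**Figure D4:**
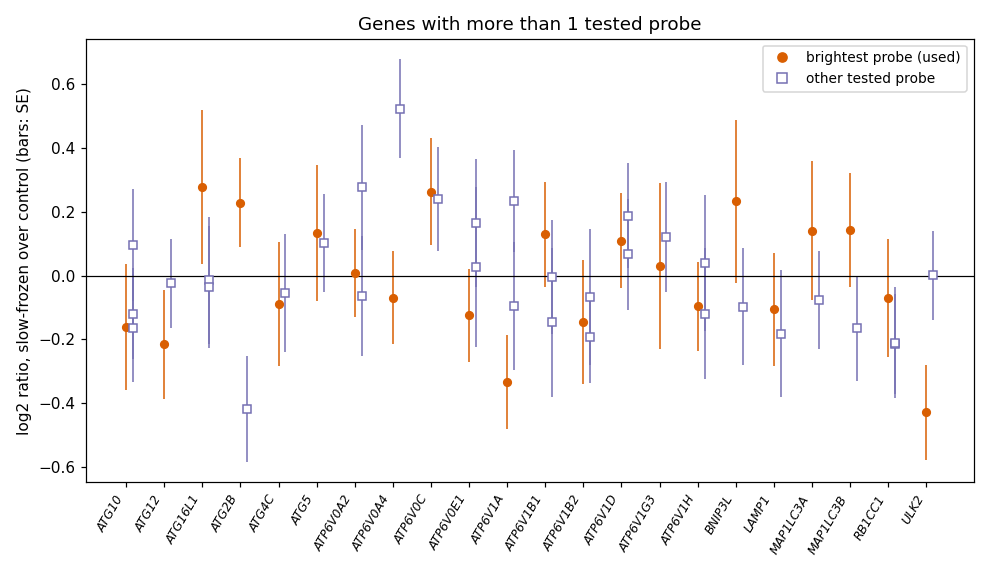
Fitted log2 ratio of slow-frozen over control (y axis, bars show the SE) for the 22 genes with more than 1 tested probe (x axis), the brightest probe as a filled circle and further probes as open squares. ATG2B, ATP6V0A4 and ATP6V1A have probes on both sides of 0 that lie over 0.3 apart, and the further probe of ULK2 lies at 0.00.

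The lists of other genes around this pathway had median ratios near 0 as well. None of the 32 tested genes for lysosomal enzymes, 18 for other proteins of the lysosomal membrane, 22 for nutrient control of autophagy through mTOR and AMPK, 20 for fusion and membrane traffic, or 10 for further cargo receptors had an unadjusted p under 0.05. Ratios above 0 were found in 15 of 32, 10 of 18, 10 of 22, 11 of 20 and 3 of 10 of these genes. The median ratios of the lists lay between -0.05 and 0.06. The gene of smallest p in each was NEU1, a sialidase, with 0.38 ± 0.20, CTNS, the cystine carrier, with 0.35 ± 0.18, LAMTOR5, listed on the array as HBXIP and part of the complex that brings mTOR to the lysosome, with 0.35 ± 0.16, VPS16, a tethering subunit, with -0.24 ± 0.14, and CALCOCO2, a cargo receptor, with -0.33 ± 0.25 (SE, n = 4 arrays each).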

How the data were processed

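The deposited scanner files held the median spot and background intensity of each channel of 4 arrays of the EmbryoGENE bovine platform, which the authors had not corrected or normalized, and the 14 summary lines that close each file were dropped. RNA had been amplified before labelling. A deposited table of log2 Cy5 over Cy3 ratios, whose making is not stated, correlated with the ratios used here at 0.96 to 0.999 and served as an alternative; 0 columns were left unused. Intensities were corrected with normexp (offset 50) and loess-normalized within arrays, giving control spots no weight (limma 3.58.1, R 4.3.3). Ratios were fitted with a treatment and a dye term, and p-values were adjusted by Benjamini-Hochberg over 30473 tested probes. A fitted ratio is the treatment term. Levels are log2 intensities after Aquantile scaling between arrays. Pools of an array were paired because they shared its hybridization, and the study's methods call the pairs biological replicates. Alternatives changed the background correction, normalization, filter, dye term, pairing, variance moderation and probe choice, or left out each array. The fit was tested on simulated data with planted changes far larger than the ratios reported here. That test does not show how well small changes are found. Gene names came from the platform annotation, which gives none for 22004 of 43794 probes; 63 of 63 symbols were current in RefSeq for ARS-UCD2.0. The deposited number of arrays limits the precision.

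The genes and lists were chosen with earlier results of these data known. Levels in every pool are given for genes at an unadjusted p under 0.05, for the gene of smallest p in each role, for the ATG8 family, and for SQSTM1, TFEB, LAMP1, LAMP2, BNIP3 and BNIP3L. Other genes are given by ratio, and further probes of a named gene where the sign differed or the ratio differed by over 0.3. Drawings were made with matplotlib.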

Additional observations from a re-analysis of the deposited data

Results flagged for a closer look

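On 6 of the 57 genes 1 array stood apart from the other 3 by Dixon's criterion at the 95% level, applied to the 4 ratios of slow-frozen over control of each gene. Chance gives about 1 in 20 such cases, and of all tested genes 4.93% met the criterion. ATG4B had a log2 ratio of -0.76 on array 2, with a gap of 0.85 of the range of its ratios. ATP6V0A1, an isoform of a membrane subunit of the V-ATPase, had -0.92 on array 1. Its signal was close to background, with 6 of 8 readings above the limit. The slow-frozen level behind that ratio, 6.61, was the lowest of its 8 levels. ATP6V0D1 had 1.24 on array 3, MAP1LC3A had 1.06 on array 4, TFEB had -0.97 on array 3 and ULK3 had -0.69 on array 4. Of these 6, 1 lay on array 1, 1 on array 2, 2 on array 3 and 2 on array 4. Without the array that stood apart, the ratio of ATP6V0A1 was 0.11, that of ATP6V0D1 -0.17, that of MAP1LC3A -0.17, that of TFEB 0.19 and that of ULK3 0.07, each opposite in sign to the ratio over all 4 arrays, while that of ATG4B, at -0.15, kept its sign. The cause was not tested.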

How the results depend on the processing

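No autophagy or lysosome gene reached an adjusted p under 0.05 in limma under any of the 16 alternatives. The alternatives of current symbols, dye term, pairing and variance moderation changed none of the ratios. The filter settings only changed which genes were tested, so none of these alternatives could change a sign. Apart from current symbols, 14 or 15 alternatives gave a ratio for each gene. Under those, 15 of the 57 genes kept the sign of their ratio. The count of genes lower in slow-frozen blastocysts at an unadjusted p under 0.05, 1 in the report, was 9 with median centring of each array in place of loess (among them ULK2, ATP6V1A and OPTN), where 7.51% of all genes were lower, 2 without the filter on dim probes, 2 without the dye term, 0 without the replicate block that pairs the pools of an array, and 0 with the mean of all probes of a gene. Apart from median centring, the share of all genes that were lower under these alternatives lay between 0.6% and 1.32%. The count higher, 0 in the report, was 1 without the filter and 1 with the mean of all probes, ATP6V0B in both. Of all genes, 1.25% and 0.87% were higher under these settings. With trended and robust variance moderation the 1 gene lower was ATG4B in place of ULK2. Leaving out 1 array gave 0 to 3 genes lower and 0 to 4 higher. The largest counts came without array 4 (ATG16L1, ATP6V0B, ATP6V0D1 and BNIP3 higher, and ATG3, ATP6V1F and OPTN lower), where 3.63% of all genes were higher and 3.61% lower, and ULK2 was past that threshold without array 3 but not without arrays 1, 2 or 4. Median centring moved the median of all genes to -0.13 and that of the 57 genes to -0.21, with 10 ratios above 0 and 47 below. The medians of the ATG8 family, the receptors, the membrane growth genes and V0 then turned to -0.15, -0.07, -0.04 and -0.11, which relative to the median of all genes are -0.02, 0.06, 0.09 and 0.02. Leaving out 1 array took the median of the 57 genes between -0.03 and 0.02. In all, 25 genes changed sign under another background correction or normalization (median centring included) or choice of probe, and 35 when 1 array was left out. The cause of these shifts was not tested. Signals near background, as for ATG4B, ATG5, ATP6V0A1, MAP1LC3C and NBR1, limit what their ratios can show.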
